A study of Homo sapiens with 8 samples.

Results

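The genes described here are 10 transcripts known as feedback outputs of the ERK kinase pathway, found by their GENCODE symbols among the 58735 Ensembl identifiers of the count files: DUSP4, DUSP5, DUSP6, SPRY1, SPRY2, SPRY4, SPRED1, SPRED2, ETV4 and ETV5. Each symbol matched 1 identifier, and all 10 passed the filter on low counts that left 16452 genes for testing. They were measured by RNA sequencing in 22Rv1 cells, a line from a human prostate tumour that grows despite castration. The MARK3i group was given PCC0208017, an inhibitor of the kinase MARK3 per the labels, and the Control group was given the vehicle DMSO, with 4 libraries each. All libraries came from this 1 line. Not given in the sources used here were dose, duration and whether replicates were separate cultures, so each p-value measures only how these samples vary, and that variation may be technical. MARK3 activity was not measured.

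ERK is the last kinase of the RAS, RAF and MEK cascade, which carries signals from growth factor receptors to the nucleus. Among the transcripts it switches on are its own brakes. The DUSP proteins are phosphatases that remove the activating phosphates from ERK, and the Sprouty (SPRY) and SPRED proteins restrain the cascade at the level of RAS and RAF. ETV4 and ETV5 are ETS transcription factors of the PEA3 group, which act downstream of ERK and are held down by the repressor Capicua when ERK is inactive. In prostate cancer the PEA3 genes are also known as partners of gene fusions. The levels of these transcripts are widely used as a readout of ERK output, although other regulators act on each gene too.

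Of the 10 genes, 2 fell in MARK3i cells, SPRY4 and ETV4, and 8 did not pass the test, among them all 3 DUSP genes. SPRY4 was 2.75-fold lower and ETV4 was 2.74-fold lower. The 2 of 10 genes called are to be read against 58.0% of all 16452 tested genes at the same threshold. That threshold was an adjusted p under 0.05 in the quasi-likelihood test of edgeR, with p-values adjusted over all tested genes by Benjamini-Hochberg. Among the 9692 tested genes whose mean level lay within the range of the 10 genes, 1.41 to 48.8 CPM, the share was also 58.0%. CPM are counts scaled to a common library size with edgeR's TMM factors. By direction, 2 of the 10 were lower against 28.3% of tested genes, and 0 were higher against 29.8%. At an unadjusted p under 0.05 in edgeR, 2 of the 10 were higher, SPRY2 and SPRED2. Genes called higher at the adjusted threshold also pass this looser one, so at least 29.8% of tested genes were higher by it. At the adjusted threshold DESeq2 and limma-voom also called 0 of the 10 higher. In 2 of the 10 genes the libraries of the groups did not overlap, which held for 51.0% of tested genes. Both calls came with a log2 difference of 1 or more, which held for 10.3% of tested genes. The median log2 fold change was 0.110 over the 10 genes and 0.021 over all tested genes, and the median absolute change was 0.177 and 0.329. Fold changes are log2 values of MARK3i minus Control ± SE, from 4 libraries a group.

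**Figure D1:**
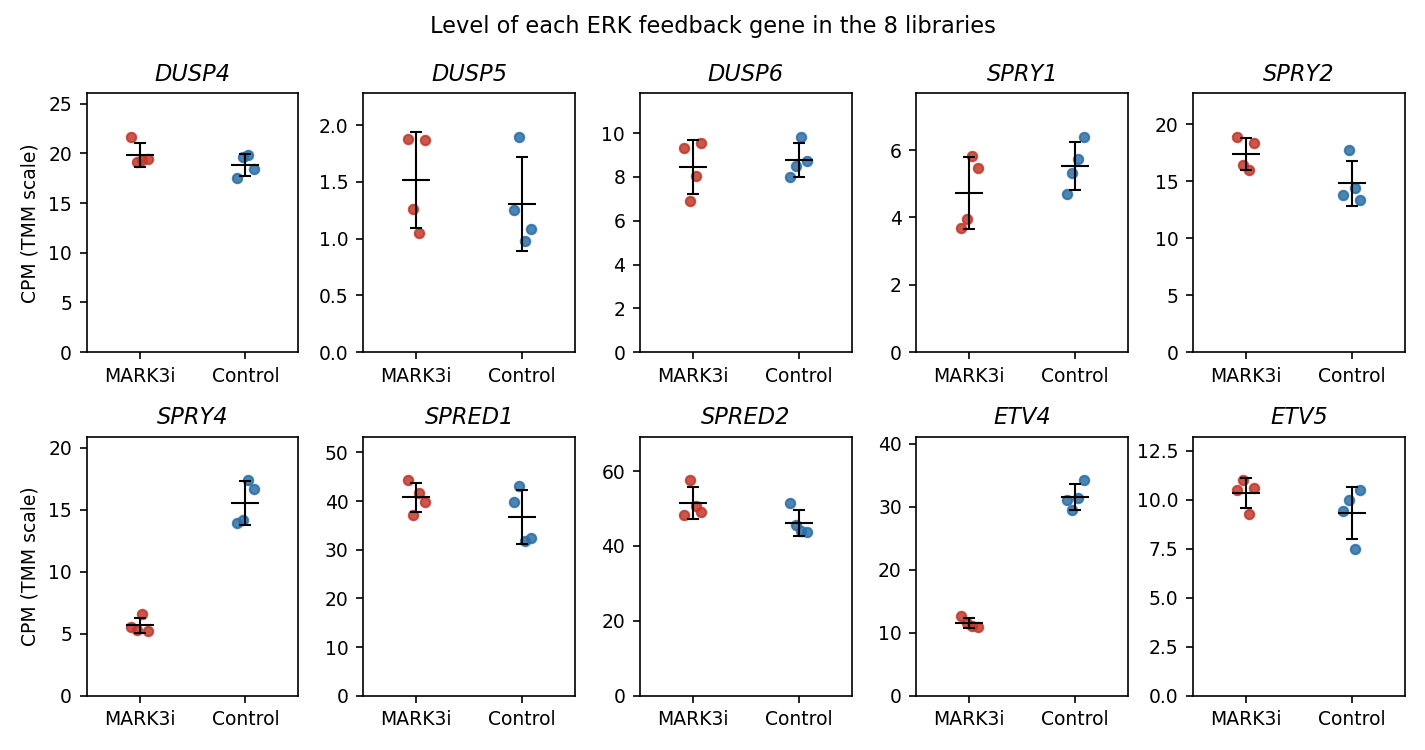
Level of each of the 10 genes in CPM on the TMM scale, with MARK3i libraries on the left and Control libraries on the right of each panel. Points are libraries, and the bar and whiskers are the mean ± SD (n = 4). The groups are apart for SPRY4 (5.19 to 6.59 against 13.9 to 17.4 CPM) and ETV4 (10.9 to 12.6 against 29.4 to 34.2 CPM) and overlap in the other panels.

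Promoter sequence from RefSeq (GRCh38.p14) was matched by symbol for 6 of the 10 genes, in 10 windows of 300 bases, from 250 before to 50 after a transcription start; DUSP4, DUSP5, ETV4 and ETV5 had no entry. The windows of SPRY4, the called gene with an entry, and of DUSP6, the gene most used as an ERK readout, are shown, with matches of the motifs searched in capitals. Both lie on the minus strand, SPRY4 at chr5:142324198-142324497 and DUSP6 at chr12:89352452-89352751. The SPRY4 window lies wholly inside the GENCODE gene, whose outer start is at 142326455, so it covers an inner start. The DUSP6 window spans the outer start of its gene, at 89352501.
SPRY4: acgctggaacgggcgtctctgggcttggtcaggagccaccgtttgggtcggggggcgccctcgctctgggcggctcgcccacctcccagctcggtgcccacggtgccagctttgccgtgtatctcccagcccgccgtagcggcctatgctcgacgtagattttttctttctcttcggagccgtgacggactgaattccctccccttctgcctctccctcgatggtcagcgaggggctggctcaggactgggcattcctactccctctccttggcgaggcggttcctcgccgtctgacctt
DUSP6: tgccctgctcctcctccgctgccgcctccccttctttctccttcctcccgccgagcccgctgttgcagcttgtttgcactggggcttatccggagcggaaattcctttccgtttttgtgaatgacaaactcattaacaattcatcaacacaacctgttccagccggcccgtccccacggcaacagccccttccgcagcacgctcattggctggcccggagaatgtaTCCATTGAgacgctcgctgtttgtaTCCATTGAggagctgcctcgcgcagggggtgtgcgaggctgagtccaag

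These windows were searched on both strands for the Capicua octamers TGAATGAA, TGAATGGA, TCAATGAA and TCAATGGA, the ETS site CCGGAAGT, the AP-1 site TGANTCA and the cyclic AMP response element TGACGTCA. TCAATGGA was added to the search after the DUSP6 window had been read. It was found in 1 of the 10 windows, that of DUSP6, with 2 matches on the opposite strand, one just before and one just after the start, which read TCCATTGA in the line above. TGANTCA was also found in 1 window, 1 of the 2 of SPRED2, with 2 matches. None of the matches overlapped that of another motif, and the SPRY4 window held none of the motifs. Among all 35116 promoter windows in the table, TGANTCA was found in 7.71%, CCGGAAGT in 4.14%, TGACGTCA in 1.85%, TGAATGAA in 1.65%, TGAATGGA in 1.03%, TCAATGAA in 0.718% and TCAATGGA in 0.51%. The G and C content was 65.0% in the SPRY4 window and 58.3% in the DUSP6 window. A match describes letters in a window and is not evidence of binding, and the lack of one says nothing of sites elsewhere.

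The sequenced depth was 13517289 to 21271127 counts in MARK3i libraries and 12672817 to 13386143 in Control libraries. All 9 prostate epithelial markers were detected, and their summed level was 2313 to 2385 CPM in MARK3i and 3202 to 3264 CPM in Control libraries. Within that list EPCAM, an epithelial adhesion gene, was at 91.7 to 106 CPM in MARK3i and 95.1 to 101 CPM in Control libraries. Of 6 fibroblast markers the sum was 15.0 to 21.9 CPM in MARK3i and 12.7 to 18.1 CPM in Control libraries, most of it COL1A1, which was higher in MARK3i, while LUM was lower. The 6 immune markers summed to 1.39 to 2.65 CPM in MARK3i and 1.74 to 2.13 CPM in Control libraries, with CD3E at 0 throughout. The 4 endothelial markers summed to at most 0.135 CPM in MARK3i and 0.0792 CPM in Control libraries, with PECAM1 and CDH5 at 0 throughout. The part of these marker levels in the results below was not tested. In bulk RNA, fewer cells that express a gene and less of its RNA per cell cannot be told apart.

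The phosphatase genes showed no change that passed the test. DUSP6 (ENSG00000139318; chromosome 12, 89347235 to 89352501, hg38, minus strand) encodes a cytoplasmic phosphatase with strong preference for ERK. It was at 9.34, 6.88, 8.06 and 9.54 CPM in MARK3i replicates 1 to 4, against 7.99, 8.48, 9.84 and 8.74 CPM in Control replicates 1 to 4. The groups overlapped, with 3 of the 4 Control libraries inside the MARK3i range. The log2 change was −0.06 ± 0.13 (95% interval −0.33 to 0.20, edgeR adjusted p = 0.702), so a fall of the size seen for SPRY4 lay outside the interval. The sign turned with total-count scaling (0.042) and without MARK3i replicate 2 (0.039). The values rest on 115 to 153 counts in MARK3i and 102 to 120 counts in Control libraries.

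DUSP4 encodes a nuclear phosphatase that is induced by ERK. It was at 21.7, 19.1, 19.3 and 19.4 CPM in MARK3i replicates 1 to 4, against 17.5, 19.6, 19.8 and 18.4 CPM in Control replicates 1 to 4. MARK3i replicate 1 alone lay above all Control libraries, and the change did not pass (0.08 ± 0.09, 95% interval −0.10 to 0.25, edgeR adjusted p = 0.475). DUSP5, another nuclear phosphatase gene and the one with the fewest reads of the 10, was at 1.88, 1.26, 1.05 and 1.87 CPM in MARK3i replicates 1 to 4, against 1.25, 1.90, 0.984 and 1.09 CPM in Control replicates 1 to 4. With 15 to 28 counts in MARK3i and 12 to 24 counts in Control libraries, its interval was wide (0.19 ± 0.29, 95% interval −0.39 to 0.78, edgeR adjusted p = 0.583).

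Of the 3 Sprouty genes SPRY4 fell, and SPRY1 and SPRY2 did not pass the test. SPRY4 (ENSG00000187678; chromosome 5, 142310427 to 142326455, hg38, minus strand) encodes a Sprouty protein that restrains RAS and RAF activation below growth factor receptors. It was at 5.58, 5.30, 6.59 and 5.19 CPM in MARK3i replicates 1 to 4, against 13.9, 14.2, 17.4 and 16.7 CPM in Control replicates 1 to 4. Every MARK3i library lay below every Control library. The mean was 5.66 ± 0.636 CPM in MARK3i and 15.5 ± 1.75 CPM in Control libraries (SD, n = 4 each), a log2 change of −1.46 ± 0.12 (95% interval −1.71 to −1.21, edgeR adjusted p = 1.68e-10). Among the 4652 genes called lower it ranked 439 by the size of the fall. The antisense gene SPRY4-AS1 overlaps it, at a mean of 0.266 CPM in MARK3i and 0.693 CPM in Control libraries. Not given in the sources used here is the strand setting of the counting, so antisense reads may be included.

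SPRY2, the Sprouty gene with the highest level per length in both groups, was at 18.9, 16.4, 16.0 and 18.3 CPM in MARK3i replicates 1 to 4, against 13.8, 17.7, 14.4 and 13.3 CPM in Control replicates 1 to 4. Control replicate 2 alone lay within the range of the MARK3i libraries, and the other 3 Control libraries lay below it. The log2 change was 0.23 ± 0.10 (95% interval 0.02 to 0.44, edgeR adjusted p = 0.0606). SPRY1 was at 3.69, 3.96, 5.81 and 5.46 CPM in MARK3i replicates 1 to 4, against 4.70, 5.31, 5.74 and 6.40 CPM in Control replicates 1 to 4. MARK3i replicates 1 and 2 lay below all Control libraries, and the other two MARK3i libraries lay among them (−0.24 ± 0.17, 95% interval −0.58 to 0.11, edgeR adjusted p = 0.227).

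The SPRED genes encode membrane-bound relatives of Sprouty that bring the RAS-inactivating protein neurofibromin to RAS. SPRED1 was at 44.3, 37.2, 41.7 and 39.8 CPM in MARK3i replicates 1 to 4, against 39.7, 43.1, 31.8 and 32.4 CPM in Control replicates 1 to 4. Control replicates 1 and 2 lay within the MARK3i range while Control replicates 3 and 4 lay below it (0.15 ± 0.09, 95% interval −0.04 to 0.33, edgeR adjusted p = 0.172). SPRED2 was at 48.4, 57.6, 50.6 and 49.2 CPM in MARK3i replicates 1 to 4, against 51.4, 45.5, 43.9 and 43.8 CPM in Control replicates 1 to 4. Only Control replicate 1 reached into the MARK3i range (0.16 ± 0.08, 95% interval 0.00 to 0.32, edgeR adjusted p = 0.0718). Across genes that reached a minimum count, Control replicates 1 and 2 were close (chi-square per degree of freedom 1.744), as were Control replicates 3 and 4 (1.718). The pairs across them gave 3.506 to 4.727, and the labels give no batch.

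The calls of SPRY2, SPRED1 and SPRED2 depended on the scaling. Scaled by total counts instead of TMM, which moved the median of all tested genes to 0.126, all 3 were called higher (SPRY2 0.332, SPRED1 0.250, SPRED2 0.266, with edgeR adjusted p = 0.0079, 0.0235 and 0.00614). With total counts 9870 of all tested genes were called in either direction, and 63.6% of those called were higher. Without Control replicate 2, SPRY2 (0.324, edgeR adjusted p = 0.013) and SPRED1 (0.229, edgeR adjusted p = 0.0399) were called higher, without MARK3i replicate 2 SPRY2 was (0.261, edgeR adjusted p = 0.0488), and without Control replicate 1 SPRED2 was (0.213, edgeR adjusted p = 0.0258). The direction of SPRED1 turned with an adjustment for transcript GC content (−0.010, edgeR adjusted p = 0.913).

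ETV4 fell while its close relative ETV5 did not pass the test. ETV4 (ENSG00000175832; chromosome 17, 43527844 to 43579620, hg38, minus strand) was at 12.6, 11.5, 11.1 and 10.9 CPM in MARK3i replicates 1 to 4, against 31.1, 29.4, 31.4 and 34.2 CPM in Control replicates 1 to 4. The groups were far apart, and the 4 MARK3i libraries lay close together. The mean was 11.5 ± 0.785 CPM in MARK3i and 31.5 ± 1.98 CPM in Control libraries (SD, n = 4 each), a log2 change of −1.45 ± 0.09 (95% interval −1.63 to −1.27, edgeR adjusted p = 4.82e-13). By the size of the fall ETV4 ranked 447 among the 4652 lower genes. Its gene model overlaps DHX8, an RNA helicase gene on the opposite strand at a mean of 68.8 CPM in MARK3i and 71.2 CPM in Control libraries, which did not pass (−0.05, edgeR adjusted p = 0.567). If strand was ignored, reads of the genes' shared stretch cannot be assigned. ETV5 was at 10.5, 11.0, 9.25 and 10.6 CPM in MARK3i replicates 1 to 4, against 9.40, 9.98, 7.46 and 10.5 CPM in Control replicates 1 to 4. The ETV5 groups overlapped (0.14 ± 0.12, 95% interval −0.10 to 0.39, edgeR adjusted p = 0.311).

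Ratios of related genes within a library are free of library scaling apart from a prior count of 2, and 6 pairs were compared. The log2 ratio of ETV4 to ETV5 averaged 0.16 ± 0.12 in MARK3i and 1.75 ± 0.22 in Control libraries (SD, n = 4 each), a difference of −1.59 with no overlap (two-sided exact permutation p = 0.0286). That of SPRY4 to SPRY2 averaged −1.60 ± 0.24 in MARK3i and 0.07 ± 0.29 in Control libraries (difference −1.67, exact permutation p = 0.0286). That of SPRY4 to SPRY1 averaged 0.27 ± 0.28 in MARK3i and 1.47 ± 0.10 in Control libraries (difference −1.20, exact permutation p = 0.0286). These p-values are the smallest that 4 against 4 libraries can give, and adjusted over the 6 ratios by Benjamini-Hochberg each was 0.0572. In these 3 ratios all 4 MARK3i libraries lay below all 4 Control libraries.

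The 3 other ratios overlapped between the groups. DUSP6 to DUSP4 averaged −1.23 ± 0.18 in MARK3i and −1.10 ± 0.08 in Control libraries (difference −0.13, exact permutation p = 0.2, adjusted 0.3). DUSP6 to DUSP5 averaged 2.40 ± 0.26 in MARK3i and 2.66 ± 0.46 in Control libraries (difference −0.25, exact permutation p = 0.3429, adjusted 0.4115). SPRED1 to SPRED2 averaged −0.34 in both groups, with SDs of 0.21 in MARK3i and 0.18 in Control libraries (exact permutation p = 1.0). The DUSP6 to DUSP4 difference was smaller than the SD in MARK3i and larger than that in Control libraries. After adjustment none of the 6 ratios, these 3 and the 3 above, had an exact permutation p under 0.05.

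**Figure D2:**
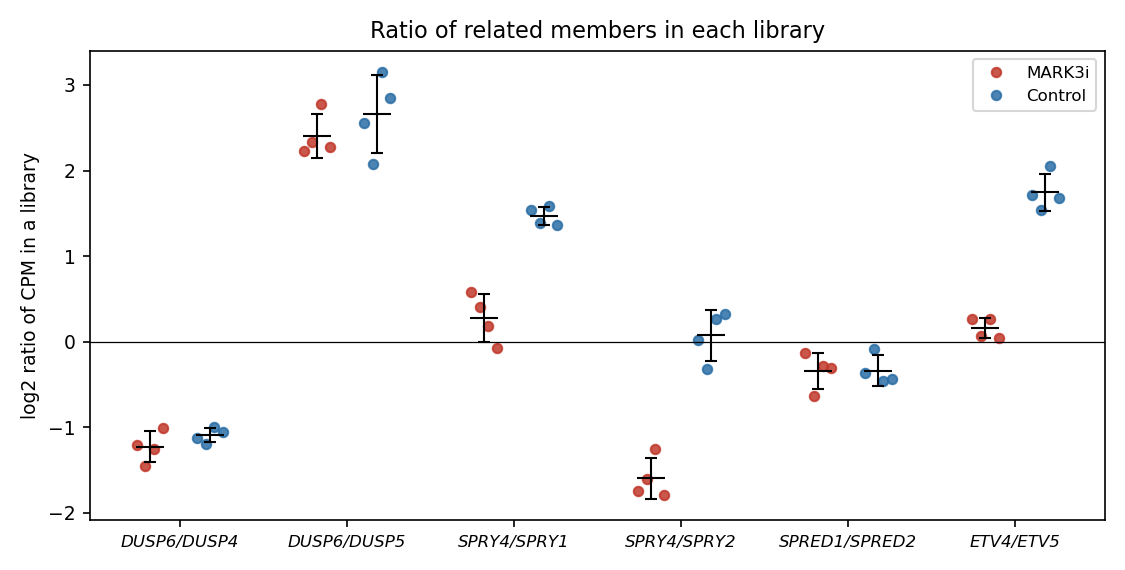
Log2 ratio of the CPM of 2 related genes in the same library, for 6 pairs, with MARK3i to the left of Control. Points are libraries, and the bar and whiskers are the mean ± SD (n = 4). The groups are apart for SPRY4/SPRY1, SPRY4/SPRY2 and ETV4/ETV5, with mean differences of −1.20, −1.67 and −1.59.

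The order of the 10 levels was read per length, as CPM per kilobase of annotated exons. In MARK3i libraries ETV4 stood in place 4 at 3.28 ± 0.223, below SPRED2 (9.35 ± 0.760), SPRY2 (5.41 ± 0.444) and SPRED1 (5.26 ± 0.389). In Control libraries ETV4 led at 8.97 ± 0.564 CPM per kilobase, followed by SPRED2 at 8.38 ± 0.648, and these neighbours overlapped (8.36 to 9.72 and 7.96 to 9.33). SPRY4 was in place 9 in MARK3i libraries (0.864 ± 0.0971) and in place 6 in Control libraries (2.37 ± 0.266), where it overlapped DUSP6 (2.27 ± 0.203). DUSP5 was lowest in both groups, at 0.597 ± 0.167 CPM per kilobase in MARK3i and 0.516 ± 0.162 in Control libraries. SPRY2 and SPRED1 overlapped in each group. With the longest transcript as the length ETV4 still led in Control libraries (13.5 CPM per kilobase), and SPRED2 followed at 10.2.

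Among 10 relatives of these genes, all tested, DUSP9, DUSP7 and DUSP2 fell and SPRED3, ETV1 and DUSP16 rose. In all, 3 were higher and 5 lower, DUSP10 and SPRY3 were not called, and the median log2 change was −0.23. Over all tested genes 29.8% were higher and 28.3% lower, 58.0% in all, with a median of 0.021, so the 3 of 10 higher is near that background. DUSP9, which encodes a cytoplasmic ERK phosphatase, was at 3.97, 4.09, 3.85 and 3.87 CPM in MARK3i replicates 1 to 4, against 18.6, 21.9, 22.3 and 21.5 CPM in Control replicates 1 to 4. All MARK3i libraries lay far below all Control libraries (−2.41 ± 0.11, edgeR adjusted p = 2.86e-15). DUSP7, the third member of the cytoplasmic ERK phosphatase group with DUSP6 and DUSP9, averaged 16.1 ± 1.28 CPM in MARK3i and 27.8 ± 2.24 CPM in Control libraries (−0.78 ± 0.09, edgeR adjusted p = 4.29e-08). DUSP2, a nuclear phosphatase gene, averaged 5.40 ± 0.970 CPM in MARK3i and 12.7 ± 0.568 CPM in Control libraries (−1.25 ± 0.13, edgeR adjusted p = 8.17e-09). The other two lower relatives, DUSP1 (−0.55 ± 0.09) and DUSP8 (−0.52 ± 0.11), are named after their values were seen, to complete the count.

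SPRED3, the third SPRED gene, was higher, at 5.37, 5.57, 5.81 and 6.43 CPM in MARK3i replicates 1 to 4, against 2.82, 2.46, 2.46 and 2.96 CPM in Control replicates 1 to 4. All MARK3i libraries lay above all Control libraries (1.11 ± 0.16, edgeR adjusted p = 2.28e-06). ETV1, the remaining PEA3 gene, averaged 45.3 ± 5.80 CPM in MARK3i and 34.9 ± 2.03 CPM in Control libraries (0.37 ± 0.08, edgeR adjusted p = 0.000482). DUSP16, whose product prefers the stress kinases JNK and p38 over ERK, rose too (0.32 ± 0.06, edgeR adjusted p = 8.59e-05). The PEA3 genes thus gave a fall of ETV4, a rise of ETV1 and no call for ETV5. Differences between a relative and one of the 10 genes were not tested.

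**Figure D3:**
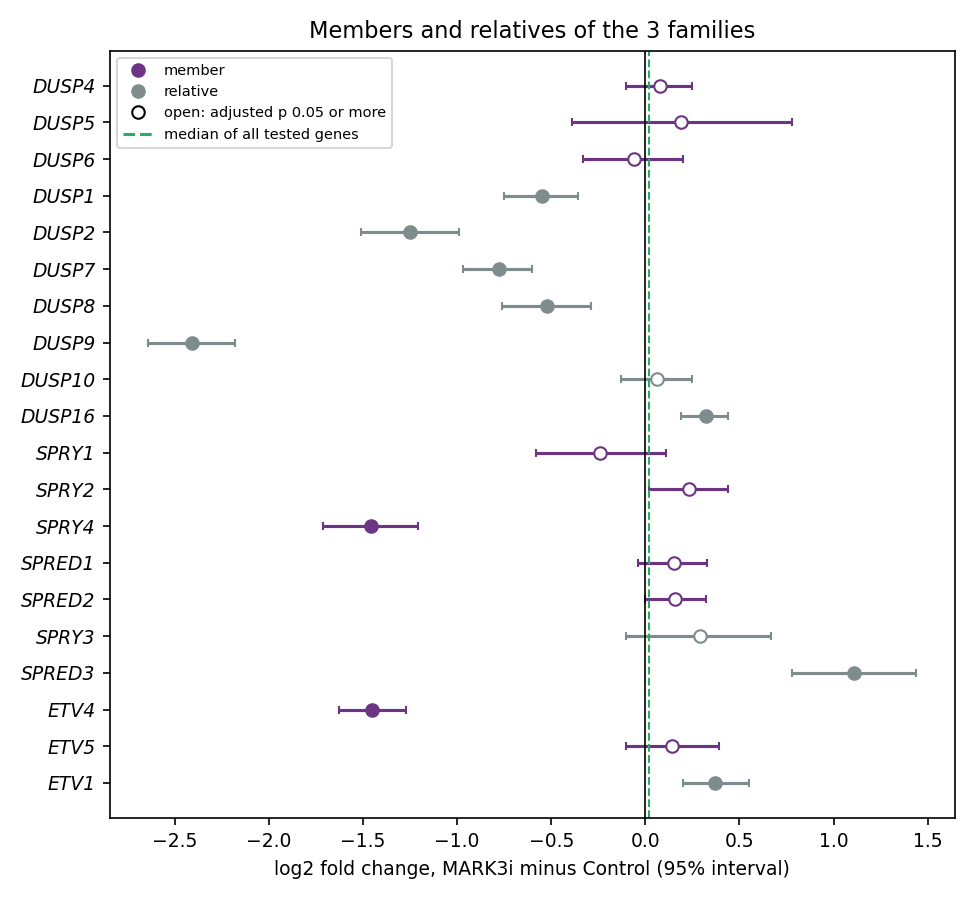
Log2 fold change, MARK3i minus Control, with its 95% interval for the 10 genes (purple) and 10 relatives (grey), grouped by family. Open points did not pass an adjusted p of 0.05, and the dashed line is the median of all tested genes, 0.021. DUSP9 (−2.41), SPRY4 (−1.46), ETV4 (−1.45) and DUSP2 (−1.25) lie lowest, and SPRED3 (1.11) lies highest.

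Of 24 core transcripts of the cascade, 14 were higher, 3 were lower and 7 were not called. This list also holds genes whose products inactivate RAS and genes of kinases activated by ERK. The median log2 change of the 24 was 0.20, beside 29.8% higher, 28.3% lower and a median of 0.021 over all tested genes. GAB1, a docking protein gene that links receptors to RAS, averaged 29.9 ± 1.51 CPM in MARK3i and 10.8 ± 1.17 CPM in Control libraries (1.47 ± 0.09, edgeR adjusted p = 1.06e-12). SOS2, a RAS exchange factor gene, rose by 0.75 ± 0.08, and SHOC2, whose product helps activate RAF, rose by 0.56 ± 0.08. RPS6KA1, which encodes a kinase activated by ERK, fell (−0.49 ± 0.08), as did ARAF (−0.26 ± 0.07) and HRAS (−0.24 ± 0.07), the last with overlapping libraries. With total counts 16 were higher and 1 lower, and with the GC adjustment 13 and 5. Total counts also moved the median of all tested genes up to 0.126. Of all called genes, 63.6% were then higher, against 51.3% in the main setting and 50.3% with the GC adjustment.

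Of 15 receptors and adaptors upstream, 14 were tested, with 4 higher, 4 lower and 6 not called (median 0.05). Both counts are near the background of 29.8% higher and 28.3% lower among all tested genes, so they are no result about these genes as a list, and the values below describe single genes. FGFR4, a fibroblast growth factor receptor gene, averaged 5.31 ± 0.667 CPM in MARK3i and 15.4 ± 2.07 CPM in Control libraries (−1.53 ± 0.13, edgeR adjusted p = 1.55e-10). FGFR1 (−0.40 ± 0.10) and FGFR3 (−0.21 ± 0.07) fell as well, whereas FGFR2 did not pass the filter. ERBB3 (0.52 ± 0.05), ERBB2 (0.31 ± 0.06) and INSR, the insulin receptor gene (0.29 ± 0.06), rose. ERBB2 overlaps MIEN1 (0.40, edgeR adjusted p = 5.52e-05) and PGAP3 (0.27, edgeR adjusted p = 0.0149) on the opposite strand, both also higher. With total counts 5 receptors and adaptors were higher and 2 lower, a scaling that moved the median of all tested genes to 0.126.

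Of 19 other transcripts known to respond to ERK, 18 were tested, and 4 were higher, 12 lower and 2 not called (median −0.43). Among all tested genes 29.8% were higher and 28.3% lower (median 0.021). LIF, a cytokine gene, averaged 0.369 ± 0.200 CPM in MARK3i and 2.44 ± 0.326 CPM in Control libraries (−2.70 ± 0.32, edgeR adjusted p = 9.58e-08). The LIF values rest on only 2 to 9 counts in MARK3i and 27 to 36 counts in Control libraries. PLAUR, the urokinase receptor gene, averaged 3.25 ± 0.704 CPM in MARK3i and 7.42 ± 0.893 CPM in Control libraries (−1.18 ± 0.16, edgeR adjusted p = 1.07e-06), and MYC fell too (−3.53 ± 0.07). The immediate early genes FOS (1.79 ± 0.11) and EGR1 (1.47 ± 0.09) were higher, as was the survival gene MCL1 (0.35 ± 0.06). FOSL1 did not pass the filter.

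Of 11 regulators (ETS factors, Capicua and its partners, SRF and CREB1), 10 were tested, with 4 higher, 3 lower and 3 not called (median −0.09). CREB1 is counted among the higher and SRF among those not called. Among all tested genes 29.8% were higher and 28.3% lower (median 0.021), and the 3 of 10 lower is near that share. Capicua acts with the partners ATXN1 and ATXN1L. ATXN1 averaged 47.4 ± 2.33 CPM in MARK3i and 20.3 ± 1.60 CPM in Control libraries (1.22 ± 0.08, edgeR adjusted p = 1.51e-12), and its antisense gene ATXN1-AS1 averaged 1.73 CPM in MARK3i and 0.664 CPM in Control libraries. ATXN1L also rose (0.34 ± 0.08, edgeR adjusted p = 0.00103), with overlapping libraries and a gene model that overlaps IST1 and AP1G1, both higher (0.31 and 0.28). CIC itself did not pass. ETS2, an ETS factor gene, averaged 14.6 ± 1.09 CPM in MARK3i and 40.4 ± 3.74 CPM in Control libraries (−1.46 ± 0.09, edgeR adjusted p = 3.69e-13). ERF, an ETS repressor whose product is exported from the nucleus by active ERK, fell (−0.54 ± 0.07), as did ELK4 (−0.42 ± 0.08), which overlaps the lower gene MFSD4A (−0.54), whereas ELK3 rose (0.61 ± 0.15).

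**Figure D4:**
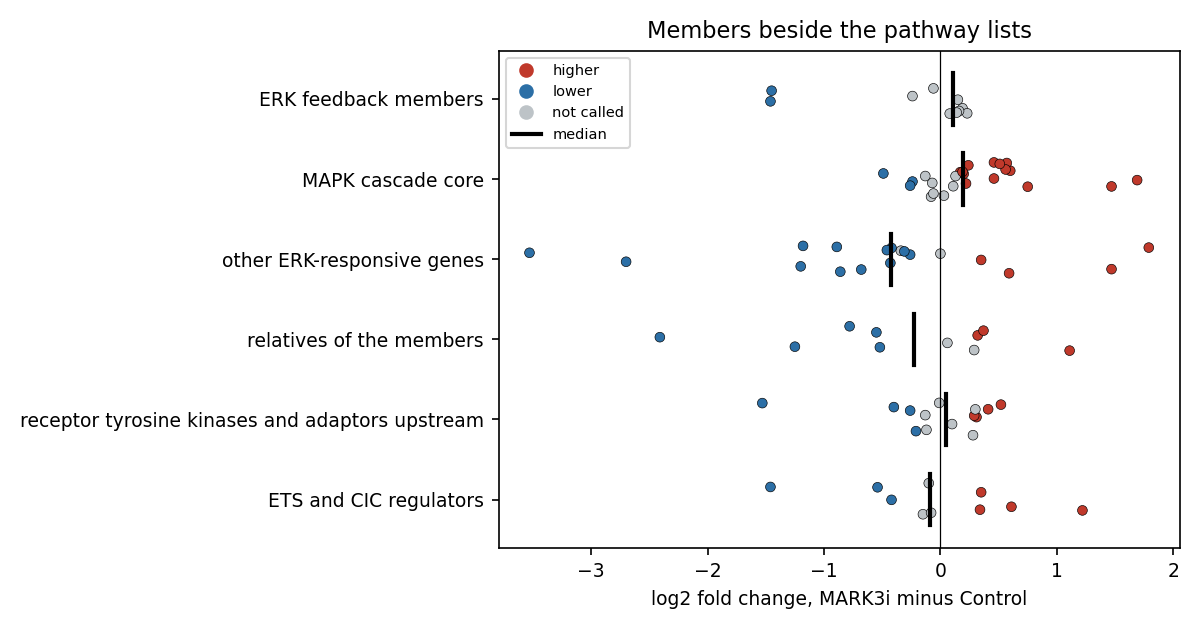
Log2 fold change, MARK3i minus Control, of each tested gene in the set of 10 and in 5 pathway lists. Red points are called higher, blue points lower and grey points not called, and the black bar is the median of each row. The set of 10 holds 2 lower genes and a median of 0.11, and the cascade list of 24 holds 14 higher genes. Among all tested genes 28.3% were lower and 29.8% higher.

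The genes whose profile over the 8 libraries was nearest were looked up for 3 of the 10, among 10274 or 10275 genes of at least 10 CPM, by the root mean square difference of log2 CPM centred on the Control mean. For ETV4 these were LYAR (0.066) and E2F1 (0.074), and for SPRY4 they were MCM5 (0.094) and VDR (0.106). For DUSP6 they were CCNQ and RPL39P3, both at 0.084, with log2 changes of 0.03 and −0.06. With 2 groups this distance mostly reflects the size of the group difference.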

How the data were processed

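Total RNA of 22Rv1 cells was sequenced in 4 MARK3i and 4 Control samples. Raw counts per Ensembl gene were deposited, made by the authors by alignment to hg38 and counting with featureCounts. The authors then ran DESeq2, per the submitters' processing notes and the series text. Not given in the sources used here were the aligner, annotation, strandedness, library kit and tool versions. Groups were taken from the titles.

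Symbols, coordinates, exon lengths and GC content came from GENCODE release 44 on hg38, which held 58207 of the 58735 identifiers. The 528 others, at most 0.0979% of a library, stayed in the fit. Counts were filtered with filterByExpr, scaled with TMM and tested with glmQLFit (robust) and glmQLFTest of edgeR 4.0.16 in R 4.3.3 on the group alone, over all 16452 genes. The SE is the absolute log2 fold change divided by the square root of F. The 95% interval uses the quasi-likelihood degrees of freedom. The procedure was tested on simulated data first. Far fewer genes were changed there than were called here, as many up as down. The scaling under a broad change was thus not tested. Ratios used log2 CPM with a prior count of 2 and scipy 1.17.1.

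Chi-square per degree of freedom between libraries was taken over genes that reached a minimum count. It was 1.718 to 9.881 within groups and 35.491 to 48.453 between them. Control replicates 1 and 2 (1.744) and Control replicates 3 and 4 (1.718) were the closest pairs. All libraries were kept as separate samples, although this value cannot tell separate cultures from repeat libraries of 1 culture. The 10 genes and the 5 lists were chosen with earlier results of these data known. From each list the text names up to 3 called genes per direction with the smallest p, apart from DUSP1, DUSP8 and CREB1, which are named for the counts. Alternatives were scaling by total counts, RLE or the upper quartile, all genes unfiltered, a filter of 1 CPM in 4 libraries, DESeq2 1.42.0, limma-voom (limma 3.58.1), dispersions that were not robust, a block for the replicate number, leaving out each library, GC offsets, an adjusted p under 0.01, a prior count of 0.5 for ratios and the longest transcript for lengths. The figures were drawn with matplotlib 3.10.9.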

Additional observations from a re-analysis of the deposited data

Results flagged for a closer look

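Among 92 groups of 4 libraries, 3 held 1 library farther from the others than Dixon's test allows, while chance gives about 1 in 20 groups. DUSP4 was at 21.7 CPM in MARK3i replicate 1, against 19.1 to 19.4 CPM in the other MARK3i libraries. ARAF was at 67.7 CPM in Control replicate 1, against 71.9 to 72.5 CPM in the other Control libraries. INSR was at 49.6 CPM in Control replicate 3, against 54.2 to 55.1 CPM in the other Control libraries.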

How the results depend on the processing

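SPRY4 and ETV4 were called lower under each of the 18 alternatives fitted, with log2 changes of −1.548 to −1.355 for SPRY4 and −1.515 to −1.310 for ETV4. The count of the 10 genes called higher, 0 in the main setting, was 2 with upper-quartile scaling, 3 with total counts, 1 with GC offsets and 0 to 2 with 1 library left out. With upper-quartile scaling these were SPRY2 (0.260) and SPRED2 (0.192), with total counts SPRY2 (0.332), SPRED1 (0.250) and SPRED2 (0.266), and with GC offsets SPRED2 (0.180). All genes called in either direction numbered 9647, 9870 and 9808 in these settings, 8867 to 9347 with 1 library left out and 9549 in the main setting. In the main setting 29.8% of all tested genes were higher. That share was not taken in the other settings, so their counts are not read as a result about the 10 genes. GC offsets turned SPRED1 to −0.010, and total counts turned DUSP6 to 0.042. With 1 library left out, DUSP6 ranged from −0.135 to 0.039, SPRY2 from 0.169 to 0.324, SPRED1 from 0.080 to 0.229 and SPRED2 from 0.101 to 0.213. The differences in log2 ratio then ranged from −1.298 to −1.082 for SPRY4/SPRY1, from −1.800 to −1.586 for SPRY4/SPRY2, from −1.659 to −1.490 for ETV4/ETV5 and from −0.067 to 0.099 for SPRED1/SPRED2, where 3 against 4 libraries cannot reach a p under 0.0571. Cascade genes called lower numbered 1 with total counts and 5 with GC offsets, and receptors and adaptors called lower numbered 2 with total counts. Over all tested genes the median log2 change was 0.126 with total counts, 0.015 with GC offsets and 0.021 in the main setting. Of all called genes, 63.6%, 50.3% and 51.3% were higher in these settings. The cause of these shifts was not tested.

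The replicate numbers are shared by the groups, but same-numbered libraries did not deviate together (r of −0.088 to 0.131, and 1 of 4 MARK3i libraries correlated best with its own number). With the replicate block 9596 genes were called and the same 2 of the 10 genes were lower. Among the 10 genes depth limits DUSP5 most.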
